A study of Homo sapiens with 3 samples.

Results

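In SAOS2 cells, 4412 CBFB peaks lay at transcription start sites (TSSs), had scores of up to 277.89 and shared no base pair with a RUNX2 peak. They made up 16.2% of the 27246 CBFB peaks of the ChIP-seq experiment (chromatin immunoprecipitation followed by sequencing). The peaks were selected on measured values, namely a score limit in the CBFB list, the lack of overlap with the RUNX2 list and a midpoint within 1 kb of any annotated TSS on chromosomes 1 to 22 and X. They are called weaker CBFB-only TSS peaks here. The score was read as that of the peak caller MACS, from its range and the submitters' notes and not from a file header. Such a score grows as the p-value of a peak gets smaller, and it cannot be set against scores of the other antibody. SAOS2 is an osteosarcoma cell line that lacks p53, here grown for fewer than 20 passages and left untreated. The series held 3 samples of these cells, which were a ChIP with a custom-made RUNX2 antibody, a ChIP with a commercial CBFB antibody, and input DNA that was not analysed here. Each antibody had 1 library, so no replicate error could be given and every interval below covers counting error only.

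CBFB (core binding factor beta) does not contact DNA itself. It forms heterodimers with RUNX1, RUNX2 or RUNX3 and raises their affinity for a short site whose core reads TGTGGT. RUNX2 is the lineage factor of osteoblasts, the cells that lay down bone, and drives genes such as those of osteocalcin and type I collagen. The TSSs of most broadly expressed genes sit in CpG islands, which keep many CG dinucleotides and often carry sites for ETS factors, SP factors and NRF1, while TSSs of tissue-restricted genes are often poor in CG.

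Bone genes are shown first, because RUNX2 is known to drive several of them. Osteocalcin (BGLAP), the type I collagen chain COL1A1 and the osteoblast transcription factor SP7 (Osterix) each had weaker CBFB-only TSS peaks with a RUNX core within 100 bp of the midpoint. Stretches of the reference (GRCh37, the hg19 build of the peak lists) around these cores read 5' to 3' as follows, with the core in capitals.
BGLAP, chr1:156211782-156211847, minus strand: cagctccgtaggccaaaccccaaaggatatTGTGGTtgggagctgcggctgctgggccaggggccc
COL1A1, chr17:48277578-48277643, minus strand: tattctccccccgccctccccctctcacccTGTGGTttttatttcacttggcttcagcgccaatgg
SP7, chr12:53739888-53739953, minus strand: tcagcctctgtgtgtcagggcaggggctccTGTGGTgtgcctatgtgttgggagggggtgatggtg
SP7, chr12:53738652-53738717, minus strand: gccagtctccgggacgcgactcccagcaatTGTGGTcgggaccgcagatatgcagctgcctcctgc
The core at COL1A1 was centred 2.5 bp from the midpoint of a peak that scored 177.84, and the midpoint was 56 bp upstream of the nearest TSS. At BGLAP the core was 91.5 bp from the midpoint of a peak that scored 262.66, 252 bp upstream of the TSS. The 2 peaks at SP7 were 70 bp apart, scored 131.89 and 95.72, and had cores 15.5 and 97.5 bp from their midpoints.

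The 8 highest-scoring peaks at protein-coding TSSs with a core within 20 bp of the midpoint had scores from 232.92 to 272.27. The 5 highest of them, at USP36, WNT1, CYP1B1, FTH1 and IMPG1, are shown to give the sequence at the centre of such peaks. USP36 encodes a deubiquitinase of the nucleolus, WNT1 a secreted ligand, CYP1B1 a cytochrome P450, FTH1 the ferritin heavy chain and IMPG1 a proteoglycan of the retina. Cores are again in capitals.
USP36, chr17:76795242-76795307, plus strand: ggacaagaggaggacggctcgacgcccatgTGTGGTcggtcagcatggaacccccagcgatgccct
WNT1, chr12:49372105-49372134, minus strand: agcgagcggggcTGTGGTtcccgcccgtct
CYP1B1, chr2:38298245-38298274, plus strand: tgtccttgggaaTGTGGTagcccaagacag
FTH1, chr11:61735108-61735137, plus strand: ctgcgggtcgctTGTGGTctcttatagccg
IMPG1, chr6:76645263-76645328, plus strand: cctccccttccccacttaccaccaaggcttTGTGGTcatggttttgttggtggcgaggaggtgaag

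CpG-rich peaks without the RUNX core are shown next, the first examples picked because they hold an ETS motif. Of all weaker CBFB-only TSS peaks, 5.96% held that motif without a core and 72.1% held neither. The ETS share was 6.80% in these peaks and 6.70% in windows at all annotated TSSs. High-scoring examples with an ETS motif (CCGGAAG) lay at RAB24, a GTPase of late autophagy with a score of 265.0, RUBCN, an autophagy regulator with a score of 246.59, and SOGA3 with a score of 244.91. Capitals mark the ETS motif.
RAB24, chr5:176730749-176730777, plus strand: tggcgcgggcgCCGGAAGcggtggctact
RUBCN, chr3:197463770-197463798, minus strand: agtccccggagCCGGAAGtgggggtggcc
SOGA3, chr6:127837042-127837070, minus strand: cagcagaaactCCGGAAGcggcgttgcgg
A longer window around the midpoint at SPRY2 shows how dense CG dinucleotides can be in such a peak. SPRY2, an inhibitor of growth factor signalling, had the highest score, and its 121 bases held 11 CG dinucleotides (capitals) and no RUNX core.
SPRY2, chr13:80914436-80914556, plus strand: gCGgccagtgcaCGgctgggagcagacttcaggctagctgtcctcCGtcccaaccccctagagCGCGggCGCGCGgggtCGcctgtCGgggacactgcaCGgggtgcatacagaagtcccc

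The weaker CBFB-only TSS peaks had scores from 50.01 to 277.89 with a median of 92.4, and widths from 394 to 7768 bp with a median of 1082 bp. Peaks just inside the score limit lay at SPRY2 (277.89), the noncoding ZFAND2A-DT (277.84), LSM6 (277.72), TMEM30A (277.61) and ITPR1-DT (277.37), and those just outside it at OMD (278.09), SRD5A3 (278.11), KIF9-AS1 (278.15), S1PR1-DT (278.64) and SBNO2 (278.75). The rest of the 10 highest scores were found at OSGIN2 (277.13), AL354718.1 (277.11), LINC00963 (277.03), NGLY1 (276.78) and NBPF11 (276.14). The midpoints farthest from a TSS were 998 bp away at CCDC85C and at ENSG00000290074, 996 bp at NR1D2, 995 bp at TMCO3 and 994 bp at KLF6, while midpoints at 1001 bp, at LINC03074 and BOP1, fell outside. The nearest RUNX2 peak was 2 bp to 5406775 bp away, with a median of 54438 bp. These values chose the peaks and describe them only.

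The distance from the TSS helped to choose the peaks, so positions around it are given as a description with no test. The median offset of the weaker CBFB-only TSS peaks along the gene was 5 bp, 47.8% of midpoints were upstream of the nearest TSS and 51.9% were within 200 bp of it. The TSS position itself lay inside 83.4% of the peaks. Of the 1360 weaker CBFB peaks at TSSs that overlapped a RUNX2 peak, 60.1% were within 200 bp and 52.2% were upstream. CBFB-only TSS peaks at or above the score limit were upstream in 38.1%. With protein-coding TSSs alone the upstream share of the weaker CBFB-only TSS peaks was 51.0%, so the side of the TSS depended on the annotation. RUNX2-overlapping peaks were also wider (median 1200 against 1082 bp) and had higher scores (median 154.56 against 92.4).

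**Figure D1:**
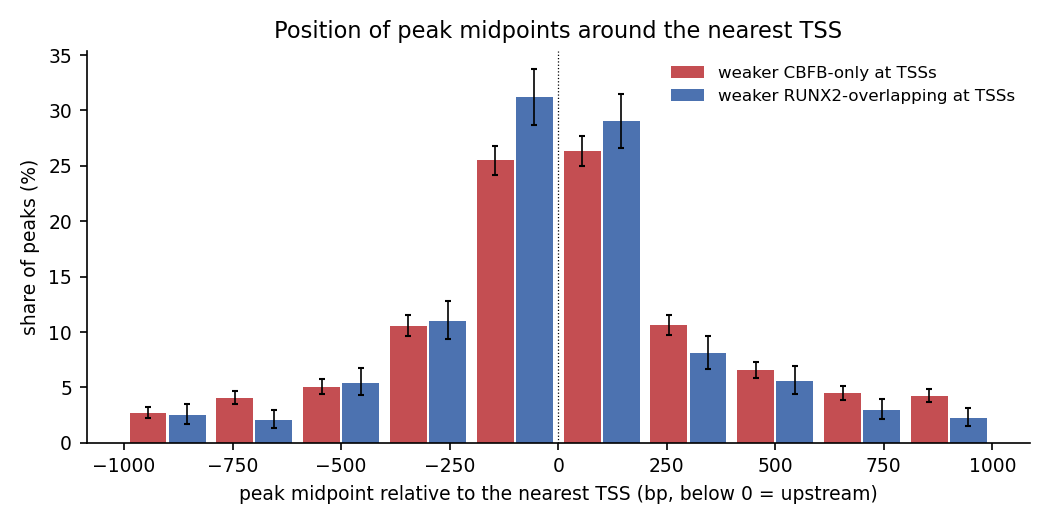
Share of peaks (%, y axis) by the position of the midpoint relative to the nearest TSS in bins of 200 bp (x axis, bp, upstream below 0), for the 4412 weaker CBFB-only TSS peaks (red) and the 1360 weaker RUNX2-overlapping TSS peaks (blue), with 95% exact intervals. The 200 bp on the upstream and the downstream side held 25.5% and 26.3% of the red peaks, against 31.2% and 29.0% of the blue peaks.

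The nearest TSS belonged to a protein-coding gene for 3260 of the peaks (73.9%), to a long noncoding RNA for 864 (19.6%), to a pseudogene for 163 (3.69%) and to a microRNA for 35 (0.793%). Midpoints were in an annotated exon in 42.0%, in a gene outside exons in 40.1% and outside genes in 18.0%. RUNX2-overlapping TSS peaks had the same long noncoding RNA share (19.6%) with a difference of 0.02 percentage points (95% Newcombe interval -2.45 to 2.37), and fewer pseudogenes (1.69%, difference 2.00 points, 1.02 to 2.82). Where 2 protein-coding genes start back to back and point away from each other, 1 midpoint can stand at both. Such divergent pairs took 11.1% of the weaker CBFB-only peaks at protein-coding TSSs, against 14.6% of the RUNX2-overlapping ones (difference -3.44 points, -5.85 to -1.22).

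Base composition varied widely among the weaker CBFB-only TSS peaks. In the 201 bp around the midpoint, the GC content ran from 23.9% to 86.6% with a median of 61.2%. The CpG ratio, which is the observed number of CG dinucleotides over that expected from the C and G content, had a median of 0.68 with quartiles of 0.35 and 0.875. A ratio of at least 0.5 was found in 2843 windows (64.4%, 95% exact interval 63.0% to 65.9%). The median ratio was 0.447 over windows of the same length at all 219871 annotated TSS positions, 0.705 for the RUNX2-overlapping TSS peaks and 0.187 for weaker CBFB-only peaks in gene bodies. Of the weaker CBFB-only TSS peaks, 928 had a ratio under 0.3, 641 from 0.3 to 0.5, 1263 from 0.5 to 0.8 and 1580 of 0.8 and over.

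The RUNX core was found on either strand in 969 of the 4412 windows, or 22% (20.7% to 23.2%). It was in 13.6% (12.9% to 14.4%) of windows centred 2 kb to either side, and in 10.3% of all TSS windows. In the weaker RUNX2-overlapping TSS peaks the share was 23.6%, a difference of -1.64 points (-4.26 to 0.87), and in the stronger CBFB-only TSS peaks it was 19.4% (2.54 points, -2.66 to 6.94). Both intervals held 0, which does not show equal shares. Away from TSSs the weaker CBFB-only peaks carried the core far more often, in 49.4% of 8742 peaks in gene bodies (difference -27.4 points, -29.0 to -25.8) and in 47.7% of 3987 peaks between genes (-25.7 points, -27.7 to -23.8). The longer word TGTGGTT was in 10.7% of the weaker CBFB-only TSS peaks and 3.21% of their flanks.

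Motifs typical of promoters were more frequent at the midpoint than in the flanks. The GC box of SP factors (GGGGCGGG) was in 11.3% of the weaker CBFB-only TSS peaks and 1.4% of flanks, the ETS motif in 6.80% and 0.980%, NRF1 (TGCGCA) in 4.92% and 0.895%, the E-box (CACGTG) in 5.46% and 2.27%, CREB (TGACGT) in 4.53% and 1.65%, the CCAAT box (AGCCAAT) in 3.6% and 2.09%, and YY1 (AAGATGGC) in 1.47% and 0.738%. Windows at all annotated TSSs held these motifs in shares of 12.1% for the GC box, 6.70% for ETS, 4.89% for NRF1, 4.38% for the E-box, 4.90% for CREB, 3.62% for the CCAAT box and 2.5% for YY1. AP-1 (TGANTCA) was in 6.01% and TEAD (GGAATG) in 9.32%, near their flanks (5.87% and 10.2%), whereas weaker CBFB-only peaks in gene bodies had AP-1 in 13.8% (difference -7.75 points, -8.75 to -6.73) and TEAD in 15.6% (-6.32 points, -7.45 to -5.16). The TATA box (TATAAA) was in 4.35%, below the 15.1% of flanks and the 8.13% of all TSS windows. Against RUNX2-overlapping TSS peaks, intervals of the difference lay off 0 for NRF1 (4.92% against 7.35%, -4.06 to -0.99 points) and YY1 (1.47% against 2.43%, -1.97 to -0.15 points) out of the 11 motifs, without adjustment for their number. The ETS share was 8.31% there (difference -1.51 points, -3.25 to 0.05). In all, 37 windows held both a RUNX core and an ETS motif (0.839%), and 3180 (72.1%) held neither.

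**Figure D2:**
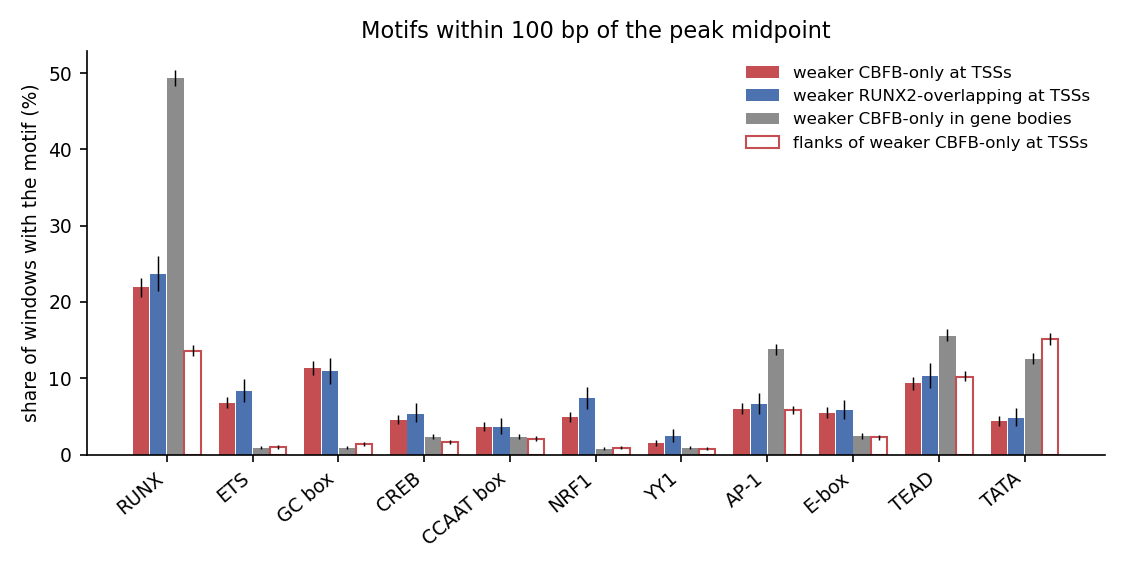
Share of windows (%, y axis) with each of 11 motifs (x axis) within 100 bp of the midpoint, with 95% exact intervals, for weaker CBFB-only TSS peaks (red), weaker RUNX2-overlapping TSS peaks (blue), weaker CBFB-only peaks in gene bodies (grey) and flanks of the first set (open). The red RUNX bar (22%) is below the grey bar (49.4%), while the red ETS and GC box bars (6.80% and 11.3%) stand above the grey ones (0.858% for both).

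CpG content went with which motif was present, in part by construction. The ETS, GC box and NRF1 words hold a CG and the RUNX core does not, and the classes count CG in the same windows. TSSs with no CBFB midpoint within 1 kb showed trends in the same directions. The share of weaker CBFB-only TSS peaks with a RUNX core was 46.0% (42.8% to 49.3%) at a CpG ratio under 0.3, 31.5% (27.9% to 35.3%) from 0.3 to 0.5, 16.7% (14.7% to 18.9%) from 0.5 to 0.8 and 8.16% (6.86% to 9.63%) at 0.8 and over. TSSs with no CBFB midpoint within 1 kb, measured in windows centred on the TSS, had the core in 14.2%, 12.2%, 7.73% and 3.68% of the same classes. The weaker CBFB-only TSS peaks were above them in each class, by 31.8 points (28.6 to 35.0) in the CpG-poorest and by 4.49 points (3.22 to 5.95) in the CpG-richest. Transcripts of 1 gene can start close together, so these TSS windows overlap and their counts are not independent.

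ETS motifs ran the other way, from 0.539% of the CpG-poorest class to 2.96%, 6.02% and 12.7% of the CpG-richest. TSSs with no CBFB midpoint gave 0.746%, 2.5%, 8.59% and 14.2%, and the difference from them was -2.58 points (-3.80 to -1.10) from 0.5 to 0.8, while intervals in the other 3 classes held 0. GC boxes were likewise below from 0.5 to 0.8 (-2.35 points, -4.14 to -0.34) and in the CpG-richest class (19.2%, a difference of -10.8 points, -12.7 to -8.75). NRF1 was below from 0.3 to 0.5 (-1.23 points, -1.81 to -0.08) and in the CpG-richest class (-1.89 points, -3.21 to -0.37). AP-1 sites were in 13.3% of the CpG-poorest class, above the 7.30% of TSSs with no CBFB midpoint (3.92 to 8.30 points), and in 1.90% of the CpG-richest.

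Within the CpG-poorest class the core share came near that of peaks in gene bodies, 46.0% against 52.8% (difference -6.80 points, -10.2 to -3.35). From 0.5 to 0.8 the gap was -19.8 points (16.7% against 36.5%, -24.4 to -15.4). With gene-body peaks weighted to the CpG classes of the TSS peaks, the overall difference of -27.4 points became -12.9 (-16.1 to -9.76), and with weights on GC content it became -10.9 (-13.1 to -8.72). Against RUNX2-overlapping TSS peaks the core share was lower in the CpG-richest class (8.16% against 11.5%, -6.61 to -0.41 points). Its intervals in the other 3 classes held 0. The longer word TGTGGTT gave 3.54% against 3.75% in the CpG-richest class (-2.4 to 1.48 points). The ETS share was lower from 0.5 to 0.8 (6.02% against 10.7%, -8.28 to -1.65 points), and its intervals in the other 3 classes held 0. AP-1 was lower from 0.3 to 0.5 (8.89% against 15.8%, -13.1 to -1.69 points). NRF1 was lower in the CpG-richest class (8.61% against 12.3%, -7.04 to -0.67 points). No interval was adjusted for the number of motifs and classes.

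**Figure D3:**
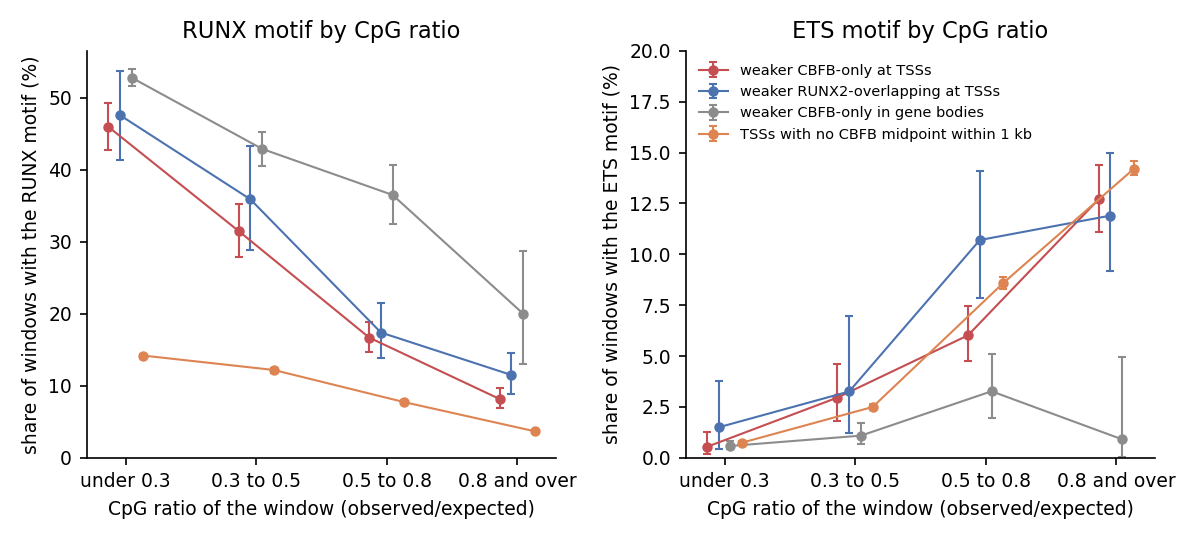
Share of windows (%, y axes) with the RUNX core (left) or the ETS motif (right) by CpG ratio class (x axes) with 95% exact intervals, for weaker CBFB-only TSS peaks (red), weaker RUNX2-overlapping TSS peaks (blue), weaker CBFB-only peaks in gene bodies (grey) and TSSs with no CBFB midpoint within 1 kb (orange). The red RUNX line falls from 46.0% to 8.16% and stays above the orange line, while the red ETS line rises from 0.539% to 12.7% beside an orange line that ends at 14.2%.

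The classes also differed in position. In the CpG-poorest class 29.8% of midpoints were within 200 bp of the nearest TSS, 57.0% of the nearest TSSs were protein-coding and 37.9% of the peaks had a RUNX2 peak within 25 kb. In the CpG-richest class these shares were 72.2%, 84.7% and 25.7%. Median scores were close, from 89.8 to 94.6 over the 4 classes.

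RUNX cores were denser near the midpoint, mostly to its left along the reference. Of the cores within 200 bp of the midpoint, 61.2% (59.1% to 63.4%) were on the left, and the share was 66.7% in gene bodies and 64.7% in RUNX2-overlapping TSS peaks. The bins from 150 bp left to 50 bp right of the midpoint were picked after the positions were seen, so densities there are a description with no interval. In them the weaker CBFB-only TSS peaks held 144 cores per 1000 peaks per 100 bp, against 60.9 at 300 to 500 bp on either side, a ratio of 2.36. This ratio was 3.21 in the CpG-poorest class, 2.72 and 1.92 in the next 2, and 1.28 in the CpG-richest, and for peaks in gene bodies it was 3.95. In the CpG-richest class the ratio was 2.97 for the ETS motif and 1.30 for the GC box. The midpoint was taken from the peak borders, since the files used here list no summit, and moving the window 50 bp to the left changed the core share from 22% to 23.5%.

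**Figure D4:**
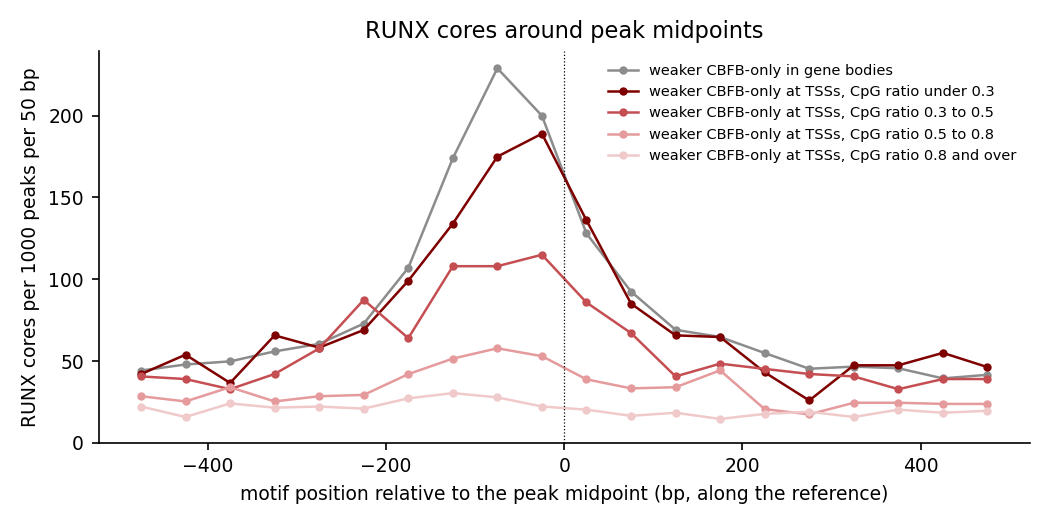
RUNX cores per 1000 peaks in bins of 50 bp (y axis) by position relative to the peak midpoint along the reference (x axis, bp), for weaker CBFB-only TSS peaks in 4 classes of CpG ratio (dark to light red) and weaker CBFB-only peaks in gene bodies (grey). The darkest red line, for a ratio under 0.3, reaches 189 in the bin left of the midpoint and the grey line 229 in the bin before it, while the lightest line, for a ratio of 0.8 and over, stays between 14.6 and 30.4.

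Motif shares by score are a description, since the score helped to choose the peaks. In 5 groups of equal size from the lowest to the highest score, the RUNX core was in 22.8%, 22%, 22.7%, 22.4% and 19.9% of the weaker CBFB-only TSS peaks, and the ETS motif in 7.47%, 6.24%, 6.80%, 7.03% and 6.46%. The exact intervals of the 5 groups overlapped for both motifs. AP-1 was in 5.89%, 6.58%, 6.69%, 6.92% and, in the group with the highest scores, 3.96% (2.78% to 5.47%). The GC box was in 10.3%, 9.75%, 12.1%, 11.5% and 12.9%. Exact intervals of the 5 groups overlapped for AP-1 and the GC box too.

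A total of 3749 of 20098 protein-coding genes (18.7%) had at least 1 weaker CBFB-only peak within 1 kb of a TSS, and 2154 (10.7%) had a RUNX2-overlapping CBFB peak of any score there. Both kinds were present at 327 genes, or 8.72% of the former and 15.2% of the latter. For 3391 genes the weaker CBFB-only peaks were the only CBFB peaks at their TSSs, which was 58.6% of the 5782 genes with any. A RUNX2 peak lay within 25 kb of a TSS for 39.9% of genes with a weaker CBFB-only TSS peak and 29.7% of those without. The difference of 10.3 points is a description, since RUNX2 overlap helped to choose the peaks. Genes without such a peak included those with only RUNX2-overlapping CBFB peaks at their TSSs and those with no CBFB peak there. Genes with a weaker CBFB-only TSS peak were also longer, with a median of 38271 against 24840 bp. The part of gene length was not tested. On the side of the peaks, 31.9% had a RUNX2 peak within 25 kb, against 37.3% of weaker CBFB-only peaks in gene bodies.

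The osteoblast and bone matrix genes held 8 of 28 genes (28.6%, 13.2% to 48.7%) with a weaker CBFB-only TSS peak, beside 18.7% of all protein-coding genes. They included BGLAP (262.66), COL1A1 (177.84), SP7 (131.89 and 95.72), ATF4 (127.18), DLX5 (115.54), the alkaline phosphatase ALPL (98.47) and DLX3 (63.14), with scores in parentheses. ATF4, DLX5 and DLX3 encode transcription factors of bone, and they are named in addition to the fixed rule, with their values known. A RUNX core was within 100 bp of the midpoint in 4 of the 9 peaks, those at BGLAP, COL1A1 and SP7, beside 22% of all weaker CBFB-only TSS peaks. The peak at DLX5 was 734 bp from a RUNX2 peak, and that at ATF4 was 118698 bp away. SP7 also had 1 RUNX2-overlapping CBFB peak below the score limit at its TSSs, and ALPL had 1 above it.

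Collagens held 14 of 44 genes (31.8%, 18.6% to 47.6%), beside 18.7% of all protein-coding genes. A RUNX2-overlapping CBFB peak was at 4 of the 44 (9.09%, 2.53% to 21.7%), near the 10.7% of all genes. The highest scores after COL18A1 (227.44) and COL1A1 belonged to COL19A1 (169.1), and the peak at COL6A3, a chain of the microfibrillar type VI collagen, was 307 bp from a RUNX2 peak with a core 14.5 bp from its midpoint. In all, 5 of the 14 collagen peaks held a core and 0 an ETS motif, beside 22% and 6.80% of all weaker CBFB-only TSS peaks. The core was in 4 of 16 peaks of DNA replication genes, 1 of 16 of DNA repair genes, 3 of 17 of ATG and VPS genes and 2 of 12 of aminoacyl-tRNA synthetases, and the ETS motif in 1, 3, 2 and 2 of them. COL19A1 and COL6A3 were chosen after their values were seen.

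DNA replication genes had a weaker CBFB-only TSS peak in 15 of 42 (35.7%, 21.6% to 52.0%), beside 18.7% of all protein-coding genes. They were led by the helicase subunits MCM5 (184.57) and MCM9 (164.86 and 69.04). Aminoacyl-tRNA synthetases, which charge tRNAs, had 12 of 35 (34.3%, 19.1% to 52.2%), among them AARS1 (257.88), whose peak is nearer to the divergent DDX19B. Autophagy and vacuolar sorting genes (ATG and VPS) had 17 of 52 (32.7%, 20.3% to 47.1%), led by ATG3 (233.62) and VPS26C (130.95). Ubiquitin-conjugating enzymes (UBE2) had 11 of 36 (30.6%), with UBE2S (182.2) and UBE2J1 (169.69). A RUNX2-overlapping peak was at 2 of the 36 (5.56%, 0.68% to 18.7%), and the interval held the 10.7% of all genes. DNA repair genes had 16 of 55 (29.1%), led by NBN (241.62). Among peaks that scored at least 100, the DNA replication share was 14.3% (5.43% to 28.5%), beside 8.73% of all genes. It was then 17.1% (6.56% to 33.6%) for aminoacyl-tRNA synthetases and 3.85% (0.47% to 13.2%) for ATG and VPS genes.

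Of the 24 lists, 17 had shares above the background of 18.7%. Exact intervals held 18.7% for all of these but DNA replication, aminoacyl-tRNA synthetases and the ATG and VPS genes, without adjustment for the number of lists. Newcombe intervals of the difference from all genes also lay above 0 for collagens (13.2 points, 1.3 to 27.9) and DNA repair (10.4 points, 0.1 to 23.5). With scores of at least 100 the exact intervals of DNA replication, aminoacyl-tRNA synthetases and ATG and VPS genes held the all-gene share of 8.73%. The interval of collagens (20.5%, 9.8% to 35.3%) then lay above it. Among those not yet given, shares were 25.6% for mitochondrial ribosomal proteins (20 of 78), 25.4% for splicing factors (15 of 59), 25% for chaperones (20 of 80), 23.6% for translation initiation factors, 23.4% for Mediator and RNA polymerase II, 28.6% for the BCL2 family (6 of 21), 21.1% for the COMPASS complex (4 of 19), 20.9% for ZNF zinc-finger genes (106 of 508), 19.4% for RAB GTPases and for cyclins with CDKs, and, below it, 17.5% for SLC transporters. Also below it were cytosolic ribosomal proteins with 14 of 87 (16.1%), replication-dependent histones with 10 of 64 (15.6%), the proteasome with 7 of 48 (14.6%) and oxidative phosphorylation with 12 of 88 (13.6%). For these 4 lists the RUNX2-overlapping peaks gave 25.3%, 35.9%, 18.8% and 20.5%, beside 10.7% of all genes. Shares of RUNX2-overlapping peaks were also high in lists above the background of the weaker CBFB-only peaks, at 32.2% for splicing factors, 28.6% for aminoacyl-tRNA synthetases, 24.4% for mitochondrial ribosomal proteins and 21.8% for DNA repair. Leading genes were RPL15 (227.59) and RPL22L1 (219.27), H2BC13 (180.83), PSMD4 (202.23) and PSMB10 (178.55), and UQCRC1 (220.46) and SDHA (214.06). Of lists typical of other tissues, olfactory receptors had 1 of 399 (0.251%, OR1F1 with a score of 110.16) and keratins 4 of 55 (7.27%, KRT80 with 152.4 and KRT85 with 133.78 the highest). A peak at a shared or divergent TSS counts for both genes, and H2BC13 and its neighbour H2AC13 were reached by the same peak.

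**Figure D5:**
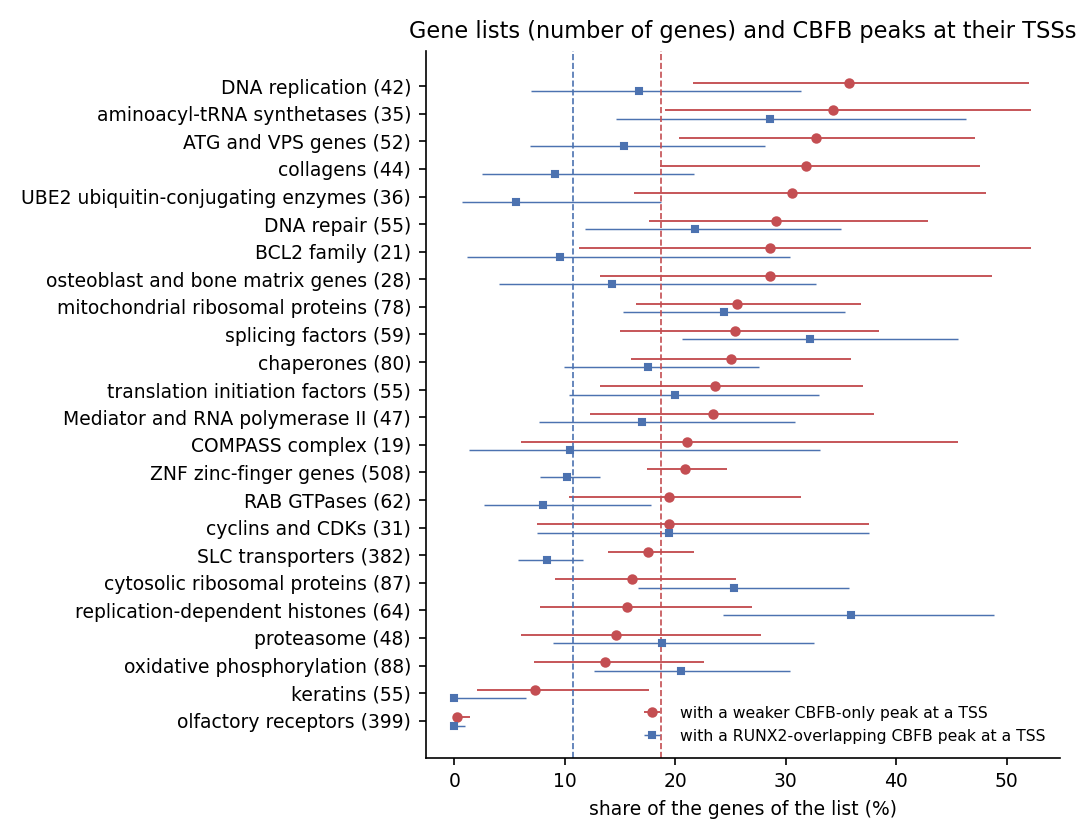
Share of genes (%, x axis) in each of 24 gene lists (y axis, number of genes in parentheses) with a weaker CBFB-only peak at a TSS (red) or a RUNX2-overlapping CBFB peak at a TSS (blue), with 95% exact intervals. Dashed lines mark the shares of all 20098 protein-coding genes, 18.7% (red) and 10.7% (blue), and red points run from 0.251% for olfactory receptors to 35.7% for DNA replication.

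A total of 37 genes had 3 or more weaker CBFB-only TSS peaks. Neighbouring genes can be counted for the same peaks, and the overlapping DNM1 and CIZ1 had the same score range (97.3 to 186). The highest number was 5, at TNS3 (scores 65.7 to 157), SEPTIN9 (52.1 to 256) and LINC00511 (99.8 to 276), followed by WWTR1 with 4 (91.2 to 164). TNS3 encodes tensin-3, which links integrins to actin, SEPTIN9 a cytoskeletal GTP-binding protein, LINC00511 a long noncoding RNA and WWTR1 the TEAD coactivator TAZ. A RUNX core was near the midpoint in 3 of the 5 peaks at TNS3 and in 0 of the 5 at LINC00511. These genes had 14, 46, 84 and 11 annotated TSS positions in the same order, and the part of that number was not tested. Genes with 3 included IGF1R, the receptor of insulin-like growth factor 1 (51.3 to 63.2), FYN (62.8 to 159), PALLD (59.9 to 267) and FLNA (71.2 to 85.2).

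RUNX1 had 2 weaker CBFB-only TSS peaks, which scored 81.81 and 81.29 and were 508 and 490 bp from RUNX2 peaks, beside 1 stronger CBFB peak that overlapped RUNX2. RUNX2, RUNX3, CBFB, MYC, MEN1, KMT2A and WDR5 had 0. At the TSSs of RUNX2, RUNX3, MYC and KMT2A the CBFB peaks present overlapped RUNX2 peaks, and CBFB, MEN1 and WDR5 had no CBFB peak of any kind.

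By chromosome, the share of protein-coding genes with a weaker CBFB-only TSS peak was lowest on X (7.71%, 67 of 869 genes, 6.02% to 9.69%) and highest on chromosome 13 (27.0%, 87 of 322, 22.2% to 32.2%). It was 12.6% on chromosome 11, 13.2% on 18 and 15.2% on 8. RUNX2-overlapping CBFB peaks also had their lowest share on X, at 3.11%.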

How the data were processed

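The authors deposited 1 peak list per antibody for SAOS2 cells, each peak with a position and a score read as that of the peak caller MACS. The submitters' processing notes name CASAVA 1.8.2, MACS 1.4.1 and hg19, and the aligner, the control library of each call and the calling limit were not given in the sources used here. Read in this way, the deposited score grows as the p-value of a peak within 1 library gets smaller. Read depth is not listed beside it, so depth is unknown and levels cannot be compared between antibodies. Peaks on chromosomes 1 to 22 and X were used, and 56 CBFB peaks on other contigs were left out.

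Peaks were set against GENCODE release 44 lifted to GRCh37, with a shared base pair as overlap and the nearest of 219871 TSS positions as the TSS. Sequence came from the GRCh37 reference. Motifs of 11 factors, each spelled out in the text, were searched as exact letters on both strands within 100 bp of the midpoint, in flanks 2 kb to either side and around every TSS. The GC box and other motifs may overlap each other. Shares have exact Clopper-Pearson 95% intervals and differences have Newcombe 95% intervals, which treat peaks as independent and cover counting error only. With 1 library per antibody no test between conditions was possible.

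Genes were named by rule: the 10 highest scores, 5 peaks on either side of each limit, the 8 highest-scoring with a core near the midpoint, the 2 highest of each of 24 gene lists, any peak at RUNX1, RUNX2, RUNX3, CBFB, SP7, ALPL, MYC, MEN1, KMT2A and WDR5, and genes with 3 or more peaks. RUBCN and SOGA3 were named in addition, by score among CpG-rich peaks with an ETS motif and no RUNX core. The peaks, the motifs and the lists were chosen with earlier results of these data known. The analysis used Python 3.11.15, numpy 2.4.6, pandas 2.3.3, scipy 1.17.1 and matplotlib 3.10.9, and the scripts were tested on simulated data. Alternatives changed the TSS set and distance, the RUNX2 distance, the score range, the motif letters and window, the GC weighting and dense windows. A few genes and sequences that the rule selects are not reported here.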

Additional observations from a re-analysis of the deposited data

How the results depend on the processing

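No paired analysis was possible because the samples carry no replicate numbers. A score of at least 100 left 1919 of the 4412 peaks and 8.73% of genes in place of 18.7%. The RUNX core share of 22% became 19.0% with protein-coding TSSs only, 18.4% within 500 bp and 26.2% within 2 kb of a TSS, 12.3% within 50 bp and 38.6% within 250 bp of the midpoint, 57.4% in the whole peak, 50.6% as TGNGGT, 10.7% as TGTGGTT and 23.5% with the window 50 bp further left, a setting chosen after seeing the data. The RUNX difference from RUNX2-overlapping TSS peaks left 0 outside its interval in the whole peak (-4.92 points, -7.85 to -1.94) and as TGNGGT (-4.04 points, -7.06 to -1.01). The ETS difference did so within 250 bp (-4.43), in the whole peak (-5.36) and, chosen after seeing the data, with the window further left (-1.74). The cause of these changes was not tested, and longer windows and shorter words find more matches by construction. The upstream share was 51.0% with protein-coding TSSs. The gene share was 15.2% within 500 bp, 21.5% within 2 kb, 17.2% with no RUNX2 peak within 5 kb and 17.9% without dense windows. Against gene-body peaks the RUNX difference ranged from -35.6 to -10.9 points and against peaks between genes from -33.8 to -7.70, below 0 in every alternative tried. The weighting by CpG class behind -12.9 and -7.70 was chosen after seeing the data. No difference between peak sets changed sign, while the upstream share crossed 50%. The number of lists above the all-gene share ranged from 12 to 17 of 24, and 16 list shares moved beyond their interval, all with the score limit of 100. Depth is unknown, so no RUNX2 binding and RUNX2 binding below the calling limit cannot be told apart.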

Other observations

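Of 4412 weaker CBFB-only TSS peaks, 35 were nearest to the TSS of a microRNA (0.793%), against 1.4% of RUNX2-overlapping TSS peaks (difference -0.60 points, -1.41 to -0.02) and 3.24% of stronger CBFB-only TSS peaks (-2.44 points, -5.25 to -0.89). Another CBFB peak lay within 1000 bp of 11.1% of them, against 10.2% of weaker CBFB-only peaks in gene bodies (0.85 points, -0.26 to 1.99). A RUNX2 peak lay within 1 kb of 2.81% and within 5 kb of 9.93%, the latter beside 12.6% of gene-body peaks. RUNX2 overlap helped to choose the peaks of both sets, so these shares are a description with no interval.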
